A study of Mus musculus with 12 samples.

Results

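TRBV1 is the mouse T cell receptor beta variable segment also known as Vβ2, and it lies at the upstream end of the beta locus on chromosome 6. Each T cell joins 1 such V segment, a short D segment and a J segment into the beta chain gene, and joins TRAV and TRAJ segments into the alpha chain gene. Bases are trimmed and added at the joints, so the CDR3 loop across them differs from cell to cell and is shared by the descendants of 1 cell. The V segment alone encodes the CDR1 and CDR2 loops, which mostly touch the presenting molecule, while CDR3 mostly touches the peptide. TRBV1 is also, with TRBV13-2 and TRBV29, a usual beta segment of invariant natural killer T (iNKT) cells, whose alpha chain joins TRAV11 to TRAJ18.

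TRBV1 receptors were chosen by the V segment call of each assembled beta (TRB) chain, and TRBV1 was picked because earlier work on these libraries had shown it paired with TRAJ26. The 6 T cell receptor libraries held 1938 TRBV1 chains on 1667 cells, in 550 distinct receptors, beside 22681 TRB chains of other V segments on 21152 cells in 12405 distinct receptors. A receptor is a V segment, J segment and CDR3 base sequence, counted once per library. The libraries came from CD45+ cells sorted from subcutaneous tumours of C57BL/6J mice aged 6 to 8 weeks, all grown from MC38, a mouse colon carcinoma line, with its own p53 knocked out and a mutant p53 given in conflicting notations by the labels. At a tumour size of about 50 to 100 mm³, on day 10, 3 samples received 40 µg of LNP-P20-mAb and 3 received 40 µg of LNP-Ctrl into the tumour once. The labels do not say whether replicates are separate mice, so p-values measure the spread between libraries, which may be technical.

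The chains carried the segment's own loops. CDR1 read NSQYPW and CDR2 read LRSPGD in 1938 of 1938 TRBV1 chains, against 0 of 22674 chains of other V segments with these loops called. CDR3 opened with the residues CTC in 493 of the 494 receptors kept for the comparisons below and with CTCSA in 408 of them, or 82.6%. No receptor of another V segment held CTCSA among 11143.

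For all comparisons, cells with 1 TRB chain and at most 2 alpha (TRA) chains were kept, which left 494 TRBV1 receptors. By library, the kept TRBV1 cells numbered 390, 250 and 149 in LNP-P20-mAb 1, 2 and 3, against 144, 212 and 200 in LNP-Ctrl 1, 2 and 3. They fell in 14, 19 and 53 receptors after LNP-P20-mAb, against 94, 146 and 168 after LNP-Ctrl. Each library held between 5050 and 9982 chains of both kinds with 85835 to 145847 unique molecular identifiers (UMIs, which count captured transcripts). LNP-P20-mAb 1 and 2 shared 7 TRBV1 receptors identical in bases, which held 98.6% of the TRBV1 cells in LNP-P20-mAb 1 and 95.8% of those in LNP-P20-mAb 2, but not 1 TRBV1 cell barcode. Over all chains, any 2 libraries shared between 11 and 29 barcodes. The labels do not say whether these libraries hold cells of the same mouse or of pooled mice, so the comparisons by treatment are also given with both counted as 1 sample.

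The sequences below carry the main pattern, an alpha CDR3 loop that recurred with TRBV1. Its amino acids are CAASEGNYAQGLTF, joined to TRAJ26 on chromosome 14. Over cells of all beta V segments, its forms had 5 base sequences and 5 TRAV segments. Capitals mark the 4 of 42 bases at which any of them differ.
TRAV14-1 with TRAJ26, LNP-P20-mAb 1 and 2: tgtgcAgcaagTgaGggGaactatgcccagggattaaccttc
TRAV14N-1 with TRAJ26, LNP-P20-mAb 1, 2 and 3: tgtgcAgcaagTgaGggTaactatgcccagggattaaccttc
TRAV5-4 with TRAJ26, LNP-Ctrl 2 and 3: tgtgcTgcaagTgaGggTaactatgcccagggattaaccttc
TRAV14-1 with TRAJ26, LNP-Ctrl 3: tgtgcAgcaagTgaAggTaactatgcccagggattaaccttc
TRAV14N-3 with TRAJ26, LNP-P20-mAb 3: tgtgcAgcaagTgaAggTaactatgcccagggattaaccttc
TRAV7D-2 with TRAJ26, LNP-Ctrl 3: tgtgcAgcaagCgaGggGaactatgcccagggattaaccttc
All 6 forms encode the same 14 residues. The TRAV7D-2 form was on 1 cell, which carried TRBV12-2, and on 0 TRBV1 cells.

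TRBV1 beta chains of cells with the loop are shown because most of them share a form as well. Lower case marks bases that match the commonest start of TRBV1 receptors or the commonest end of receptors with that TRBJ, and capitals mark the bases between, which hold the D segment and added bases.
TRBJ2-1, residues DT, LNP-P20-mAb 1 and 2: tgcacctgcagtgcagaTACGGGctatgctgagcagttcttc
TRBJ2-1, residues EW, LNP-P20-mAb 3: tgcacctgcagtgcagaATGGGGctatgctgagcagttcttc
TRBJ2-1, residues ER, LNP-P20-mAb 1 and 2: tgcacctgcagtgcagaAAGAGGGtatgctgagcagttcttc
TRBJ2-1, residues ET, LNP-Ctrl 3: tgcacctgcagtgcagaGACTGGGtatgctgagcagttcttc
TRBJ2-1, residues DG, LNP-Ctrl 3: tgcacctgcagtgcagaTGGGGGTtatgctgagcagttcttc
TRBJ1-1, LNP-Ctrl 2: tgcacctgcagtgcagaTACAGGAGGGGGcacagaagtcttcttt
The 5 TRBJ2-1 chains all read CTCSA, then the 2 residues named, then GYAEQFF.

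The alpha loop was found on 263 kept cells, of which 262 carried TRBV1 and 1, in LNP-Ctrl 3, carried TRBV12-2. It was on 59, 67 and 77 TRBV1 cells of LNP-P20-mAb 1, 2 and 3, and on 0, 54 and 5 TRBV1 cells of LNP-Ctrl 1, 2 and 3. These are 15.1%, 26.8% and 51.7% of the kept TRBV1 cells after LNP-P20-mAb, against 0%, 25.5% and 2.50% after LNP-Ctrl. Among kept cells the groups overlap, since LNP-Ctrl 2 lies above LNP-P20-mAb 1, and LNP-Ctrl 1 is the 1 library without the loop. Cells left out for a second TRB chain are not in these shares. Of them, 74 in LNP-P20-mAb 1 and 28 in LNP-P20-mAb 2 carried the chain with DT and TRAV14-1 with TRAJ26. The order of LNP-Ctrl 2 and LNP-P20-mAb 1 was not computed with such cells kept. The TRBV1 cells with the loop fell in 9 receptors, counted per library, or 7 different base sequences. Because TRBV1 was chosen for this pairing, no test is given.

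In LNP-P20-mAb 1, 2 and 3 and in LNP-Ctrl 2 the loop was mainly on 1 clone. The beta chain with DT paired with TRAV14-1 on 58 cells of LNP-P20-mAb 1 and 64 cells of LNP-P20-mAb 2. The beta chain with EW paired with TRAV14N-1 on 76 cells of LNP-P20-mAb 3. In LNP-Ctrl 2 the TRBJ1-1 chain, whose CDR3 is 15 residues long, paired with TRAV5-4 on 54 cells. LNP-Ctrl 3 held smaller pairs, the chain with ET on 3 cells with TRAV5-4 and the chain with DG on 2 cells with TRAV14-1. The chain with ER paired with TRAV14N-1 on 1 cell of LNP-P20-mAb 1 and on 3 cells of LNP-P20-mAb 2. The last pair joined a TRBJ2-3 chain to TRAV14N-3 on 1 cell of LNP-P20-mAb 3. So in LNP-P20-mAb 3, LNP-Ctrl 2 and LNP-Ctrl 3 the beta chains had other bases than those in LNP-P20-mAb 1 and 2.

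Loops 1 residue away were rare. TRAJ26 loops that differed from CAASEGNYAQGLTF at a single residue were on 10 kept cells, of which 2, or 20%, carried TRBV1. These cells fell in 2 TRBV1 receptors and 7 of other V segments. Over all receptors with an alpha chain, 4.26% were TRBV1. The beta form itself was rare too. Of 70 kept TRBV1 receptors with TRBJ2-1, 8 had CTCSA, 2 residues and GYAEQFF, and 7 of these 8 carried the alpha loop. The exception, with AG in LNP-P20-mAb 3, paired with TRAV13-1 and TRAJ49 on its 1 cell. The form was read from chains on cells with the loop, so its link to the loop was built in and is only described. The chains with DT and with ER, identical in bases, are each counted in both LNP-P20-mAb 1 and 2. A CDR3 ending in GYAEQFF was found in 18.6% of TRBV1 receptors with TRBJ2-1 and in 14.8% of other receptors with TRBJ2-1.

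Over all loops, TRAJ26 was the leading alpha J segment in 26 of 451 TRBV1 receptors with an alpha chain, or 5.77%, and in 4.35% of the 10135 other receptors. By library the TRBV1 share was 21.4%, 15.8% and 4.26% after LNP-P20-mAb, against 2.30%, 3.88% and 7.10% after LNP-Ctrl. Counted by cells, TRBV1 made up 32.1% of the 916 cells of receptors led by TRAJ26. That share was 54.4%, 64.5% and 51.0% in LNP-P20-mAb 1, 2 and 3, against 1.90%, 27.9% and 8.70% in LNP-Ctrl 1, 2 and 3. Apart from the shared loop, the 18 TRAJ26 pairings of TRBV1 were on 1 cell each, 2 of them after LNP-P20-mAb and 16 after LNP-Ctrl. The LNP-P20-mAb libraries also held fewer TRBV1 receptors with an alpha chain, 14, 19 and 47, against 87, 129 and 155 after LNP-Ctrl.

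**Figure D1:**
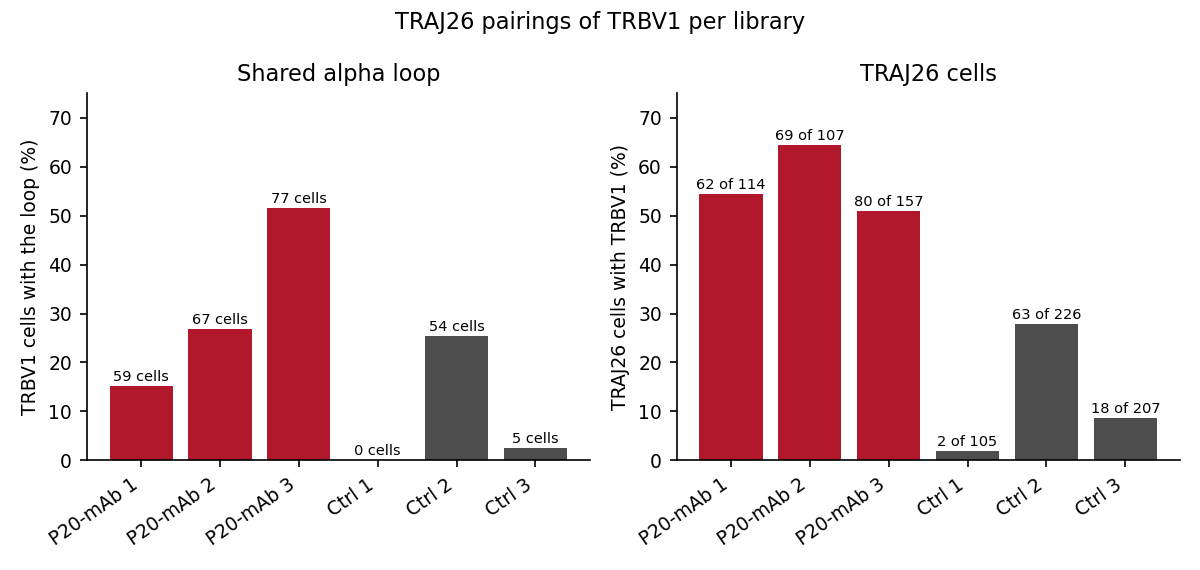
The left panel plots the percentage of kept TRBV1 cells that carry the alpha loop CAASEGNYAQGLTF in each library. The right panel plots the percentage of cells of receptors led by TRAJ26 that carry TRBV1. Both axes start from 0, with LNP-P20-mAb libraries in red and LNP-Ctrl libraries in grey. The loop is on 59, 67 and 77 TRBV1 cells of the LNP-P20-mAb libraries and on 0, 54 and 5 of the LNP-Ctrl libraries.

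By cells, TRBV1 was more frequent in LNP-P20-mAb 1 and 2 than in the other libraries. Its share of kept T cells was 10.9%, 11.4% and 4.85% in LNP-P20-mAb 1, 2 and 3, with exact binomial 95% intervals of 9.91 to 12.0%, 10.1 to 12.8% and 4.12 to 5.67%. It was 4.06%, 4.77% and 4.89% in LNP-Ctrl 1, 2 and 3, with intervals of 3.44 to 4.77%, 4.16 to 5.44% and 4.25 to 5.59%. These intervals cover counting error only. LNP-P20-mAb 3 lies within the range of the LNP-Ctrl libraries, so the groups overlap. The means were 9.05 ± 3.64% after LNP-P20-mAb and 4.57 ± 0.446% after LNP-Ctrl (SD, n = 3 each), a difference of 4.48 percentage points with a two-sided exact permutation p of 0.2, where 0.1 is the smallest the design allows. With LNP-P20-mAb 1 and 2 counted as 1 sample the difference was 3.40 points, again with an exact permutation p of 0.2. In LNP-P20-mAb 1 and 2, TRBV1 was second by cells among the 22 beta V segments called, and in the other 4 libraries it stood between 9 and 12. Without cells of the shared TRAJ26 loop, the shares were 9.42%, 8.59% and 2.40% after LNP-P20-mAb, against 4.06%, 3.60% and 4.77% after LNP-Ctrl, a difference of 2.66 points with an exact permutation p of 0.4.

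Counted once per receptor, TRBV1 was not higher after LNP-P20-mAb. It made up 2.30%, 4.40% and 3.61% of distinct receptors in LNP-P20-mAb 1, 2 and 3, and 4.85%, 4.18% and 4.54% in LNP-Ctrl 1, 2 and 3. The groups overlap through LNP-P20-mAb 2. The log2 fold change, LNP-P20-mAb over LNP-Ctrl, was -0.40 ± 0.19 (SE), with an edgeR quasi-likelihood adjusted p of 0.292 over all 151 segments of both chains. With LNP-P20-mAb 1 and 2 counted as 1 sample it was -0.44, with an edgeR adjusted p of 0.266. In that fit 5 of 151 segments passed an adjusted p of 0.05, which is 3.31%, and TRBV1 was not among them. Counted by cells in place of receptors, the same edgeR fit gave TRBV1 a log2 fold change of 0.98, with an adjusted p of 0.140.

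The beta V segments whose share of receptors varied most like that of TRBV1 over the 6 libraries were TRBV19, TRBV26 and TRBV15. Pearson's r of log2 shares was 0.81 for TRBV19, 0.74 for TRBV26 and 0.64 for TRBV15. These are descriptions over 6 points that share library, depth and clones.

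**Figure D2:**
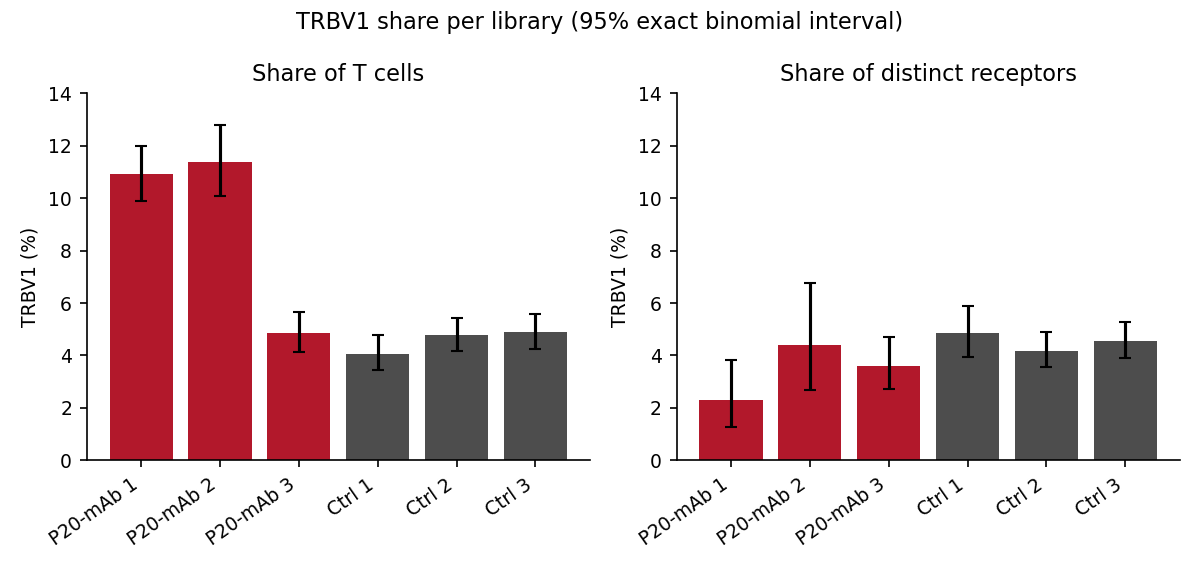
Bars give the TRBV1 percentage of kept T cells (left) and of distinct TRB receptors (right) in each library, from 0, with exact binomial 95% intervals as whiskers and LNP-P20-mAb libraries in red before LNP-Ctrl libraries in grey. By cells LNP-P20-mAb 1 and 2 stand at 10.9% and 11.4% above the other 4 libraries, and by receptors all 6 lie between 2.30% and 4.85%.

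More of the TRBV1 cells belonged to clones in each LNP-P20-mAb library than in any LNP-Ctrl library. The share of TRBV1 cells whose receptor was on 2 or more cells of the library was 98.2%, 94.4% and 70.5% in LNP-P20-mAb 1, 2 and 3, against 43.8%, 34.0% and 23.5% in LNP-Ctrl 1, 2 and 3. The groups do not overlap, with means of 87.7 ± 15.0% and 33.7 ± 10.1% (SD, n = 3 each). The difference was 54.0 percentage points, with a two-sided exact permutation p of 0.1, the smallest the design allows, and 0.4 after Benjamini-Hochberg adjustment over the 4 comparisons by treatment. With LNP-P20-mAb 1 and 2 counted as 1 sample it was 50.0 points, with an exact permutation p of 0.1. Without receptors with the TRAJ26 loop the shares were 98.2%, 92.3% and 37.7% after LNP-P20-mAb, against 43.8%, 8.50% and 19.9% after LNP-Ctrl. Then LNP-P20-mAb 3 lay below LNP-Ctrl 1, and the difference was 52.0 points with an exact permutation p of 0.2. With every library thinned to 2197 cells, the expected shares were 97.6%, 94.4% and 68.3% after LNP-P20-mAb, against 40.5%, 31.9% and 17.9% after LNP-Ctrl.

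This pattern was not limited to TRBV1. Cells of other V segments were in such clones for 84.6%, 83.6% and 58.1% after LNP-P20-mAb, against 50.6%, 26.5% and 12.9% after LNP-Ctrl. The TRBV1 share was higher than that of other V segments in 5 of 6 libraries, with LNP-Ctrl 1 the exception, by a mean of 7.98 ± 7.57 percentage points (SD, n = 6). Receptors with the TRAJ26 loop, for which TRBV1 was chosen, are part of this difference, so no test is given. Without them, the TRBV1 share minus that of other V segments was 13.6, 8.69 and -20.4 points after LNP-P20-mAb, against -6.88, -18.0 and 6.94 points after LNP-Ctrl, so TRBV1 was higher in 3 of 6 libraries.

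For TRBV1 cells the groups did not overlap either for clones of 20 or more cells. This share was not computed for other V segments, so it cannot be called particular to TRBV1. These clones held 92.6%, 93.2% and 53.0% of TRBV1 cells in LNP-P20-mAb 1, 2 and 3, against 0%, 27.8% and 0% in LNP-Ctrl 1, 2 and 3. They were 3, 4 and 1 receptors after LNP-P20-mAb, against 0, 1 and 0 after LNP-Ctrl. Without receptors with the TRAJ26 loop, such clones held 91.5%, 92.3% and 0% of TRBV1 cells after LNP-P20-mAb, against 0%, 0% and 0% after LNP-Ctrl. LNP-P20-mAb 3 then equalled the LNP-Ctrl libraries, so the groups were no longer apart. Receptors on a single cell numbered 7, 14 and 44 after LNP-P20-mAb, against 81, 140 and 153 after LNP-Ctrl.

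**Figure D3:**
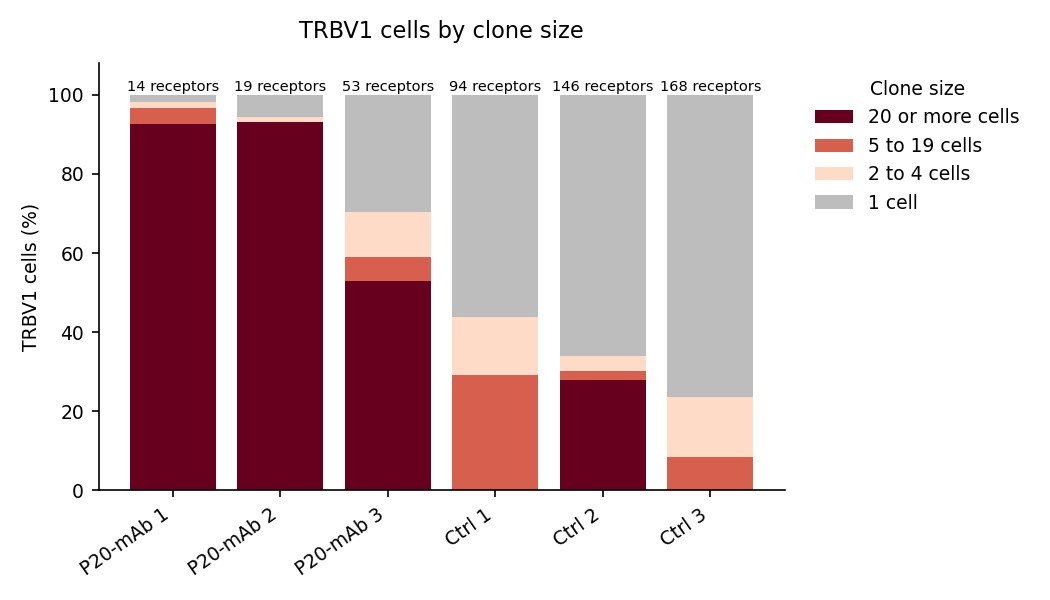
Stacked bars divide the kept TRBV1 cells of each library, in percent from 0 to 100, by the number of cells with the same receptor, and the number of TRBV1 receptors stands above each bar. Clones of 20 or more cells hold 92.6%, 93.2% and 53.0% of the cells in the LNP-P20-mAb libraries and 0%, 27.8% and 0% in the LNP-Ctrl libraries.

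The largest TRBV1 clones of LNP-P20-mAb 1 and 2 were the same 4 receptors, in the same order. Apart from the chain with DT, which is shown above, they are printed here with the largest clones of the other libraries whose beta chain is not shown above, in the same notation.
TRBJ2-5, LNP-P20-mAb 1 and 2: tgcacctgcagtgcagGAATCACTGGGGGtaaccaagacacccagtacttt
TRBJ1-5, LNP-P20-mAb 1 and 2: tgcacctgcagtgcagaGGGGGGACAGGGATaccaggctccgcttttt
TRBJ2-1, 15 residues, LNP-P20-mAb 1 and 2: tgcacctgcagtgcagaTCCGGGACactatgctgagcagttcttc
TRBJ2-1, LNP-P20-mAb 3: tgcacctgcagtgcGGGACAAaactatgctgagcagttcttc
TRBJ2-4, LNP-Ctrl 1: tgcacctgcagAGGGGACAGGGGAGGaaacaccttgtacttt
TRBJ1-4, LNP-Ctrl 1: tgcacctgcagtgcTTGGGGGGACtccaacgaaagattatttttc
TRBJ2-5, LNP-Ctrl 3: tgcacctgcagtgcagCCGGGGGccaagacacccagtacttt

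The TRBJ2-5 receptor, 17 residues long and paired with TRAV12-2 and TRAJ23, was first. It held 243 kept cells of LNP-P20-mAb 1, or 6.80% of all its kept T cells (exact binomial 95% interval 6.00 to 7.68%), and 109 of LNP-P20-mAb 2, or 4.96% (4.09 to 5.95%). The chain with DT and the TRAJ26 loop was second, on 60 and 65 cells. The TRBJ1-5 receptor, 16 residues long and paired with TRAV16D-DV11 and TRAJ39, came next, on 58 and 37 cells. The TRBJ2-1 receptor of 15 residues, paired with TRAV3-3 and TRAJ32, followed, on 16 and 22 cells.

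In LNP-P20-mAb 3 the chain with EW and the TRAJ26 loop was first, on 79 cells or 2.57% of its T cells (2.04 to 3.20%), and the TRBJ2-1 receptor printed above for that library was second, on 9 cells, with TRAV6-7-DV9 and TRAJ53. The third, TRBJ1-1 with TRAV7D-2 and TRAJ7, was on 4 cells. In LNP-Ctrl 2 the TRBJ1-1 chain with the TRAJ26 loop was first, on 59 cells or 1.33% (1.01 to 1.71%), followed by a TRBJ2-4 receptor with TRAV9-4 and TRAJ34 on 5 cells and by several on 2 cells. Other LNP-Ctrl clones were small. LNP-Ctrl 1 had the TRBJ2-4 receptor with TRAV6-5 and TRAJ53 on 13 cells, the TRBJ1-4 receptor with TRAV7N-6 and TRAJ21 on 10 cells, and a TRBJ2-3 receptor with TRAV9N-3 and TRAJ12 on 8 cells. LNP-Ctrl 3 had the TRBJ2-5 receptor with TRAV14D-3-DV8 and TRAJ43 on 12 cells, and then the beta chain with ET on 5 cells and that with DG on 4 cells. Cells are counted here by beta chain, with any alpha chain or none, so these numbers can exceed those of the TRAJ26 pairs. Of the 5 cells with ET, 4 had an alpha chain, which was that of the TRAJ26 loop on 3.

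Few amino acid loops recurred between libraries. Of 536 TRBV1 loops (CDR3 residues with TRBJ), counted before cells were left out, 12 were in more than 1 library, and 6 of these only in LNP-P20-mAb 1 and 2. The 1 loop in 3 libraries was CTCSA, ER, GYAEQFF with TRBJ2-1. LNP-P20-mAb 1 and 2 held it in the bases printed above, and LNP-Ctrl 3 in other bases, on 1 cell that also carried another TRB chain and so was left out of the comparisons.
TRBJ2-1, residues ER, LNP-Ctrl 3: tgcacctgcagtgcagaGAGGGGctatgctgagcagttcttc

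Many TRBV1 cells of LNP-P20-mAb 1 and 2 carried a second TRB chain, which removed them from the comparisons. Of all TRBV1 cells, 33.4%, 19.9% and 6.88% had 2 TRB chains in LNP-P20-mAb 1, 2 and 3, against 10.0%, 7.42% and 9.09% in LNP-Ctrl 1, 2 and 3. Cells of other V segments had 2 in 9.63%, 7.11% and 10.4% after LNP-P20-mAb, against 5.55%, 6.31% and 5.10% after LNP-Ctrl. Both chains were TRBV1 in 196 of 196, 62 of 62 and 3 of 11 such TRBV1 cells after LNP-P20-mAb, against 5 of 16, 4 of 17 and 1 of 20 after LNP-Ctrl. Among such cells with no TRBV1 chain, both chains had the same V segment in 93.5%, 83.9% and 61.5% after LNP-P20-mAb, against 58.5%, 20.4% and 6.70% after LNP-Ctrl.

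The second chain was mostly that of another large clone. The commonest pair was the chain with DT and the TRBJ2-5 receptor of 17 residues, on 141 cells of LNP-P20-mAb 1 and 45 cells of LNP-P20-mAb 2, each with 1 alpha chain. The stronger beta chain was the usual partner of the alpha chain found. In LNP-P20-mAb 1, the chain with DT had a median of 23 UMIs against 16 for the TRBJ2-5 chain on the 74 cells with TRAV14-1 and TRAJ26, and 3 against 32 on the 67 cells with TRAV12-2 and TRAJ23. In LNP-P20-mAb 2 the medians were 41.5 against 7.5 on 28 cells with TRAV14-1 and TRAJ26, and 2 against 38 on 17 cells with TRAV12-2 and TRAJ23. The source of the second chains was not tested. With these cells kept, the TRBJ2-5 receptor was on 437 cells of LNP-P20-mAb 1 and 161 of LNP-P20-mAb 2, and the chain with DT on 203 and 119.

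TRBV1 chains had a higher median UMI count than other beta chains in each library. The median per cell was 23, 26 and 27 UMIs for TRBV1 against 18, 19 and 17 for other V segments in LNP-P20-mAb 1, 2 and 3. It was 26, 19 and 20 UMIs against 20, 13 and 14 in LNP-Ctrl 1, 2 and 3. TRBV1 was higher in 6 of 6 libraries, by 6.67 ± 1.75 UMIs (SD, n = 6). The two-sided exact sign-flip permutation p was 0.031, the smallest possible, and 0.0625 after adjustment over the 4 within-library comparisons. Among receptors found on a single cell, which no large clone can weight, the medians were 19, 34 and 26 UMIs for TRBV1 against 15, 16 and 17 for others after LNP-P20-mAb, and 25, 16.5 and 20 against 17, 13 and 14 after LNP-Ctrl. These TRBV1 medians rest on 7, 14 and 44 cells after LNP-P20-mAb, and on 81, 140 and 153 cells after LNP-Ctrl. Capture and amplification of the V segments were not measured apart from transcript number, so these cannot be told apart.

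Between treatments, the TRBV1 medians averaged 25.3 ± 2.08 UMIs after LNP-P20-mAb and 21.7 ± 3.79 UMIs after LNP-Ctrl (SD, n = 3 each), with an exact permutation p of 0.3. That difference was 3.83 UMIs with LNP-P20-mAb 1 and 2 counted as 1 sample, again with an exact permutation p of 0.3. With barcodes of several TRB chains kept it was 0.833 UMIs, with an exact permutation p of 0.9. An alpha chain was recovered in 90.5%, 91.2% and 91.3% of TRBV1 cells after LNP-P20-mAb and in 91.0%, 88.7% and 90.5% after LNP-Ctrl. The mean over the 6 libraries was 90.5 ± 0.962% for TRBV1 and 91.6 ± 1.96% for other V segments (SD, n = 6), lower for TRBV1 in 5 of 6 libraries, with an exact sign-flip permutation p of 0.0625. That difference of -1.08 percentage points was -0.319 points with barcodes of several TRB chains kept, with an exact sign-flip permutation p of 0.75.

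**Figure D4:**
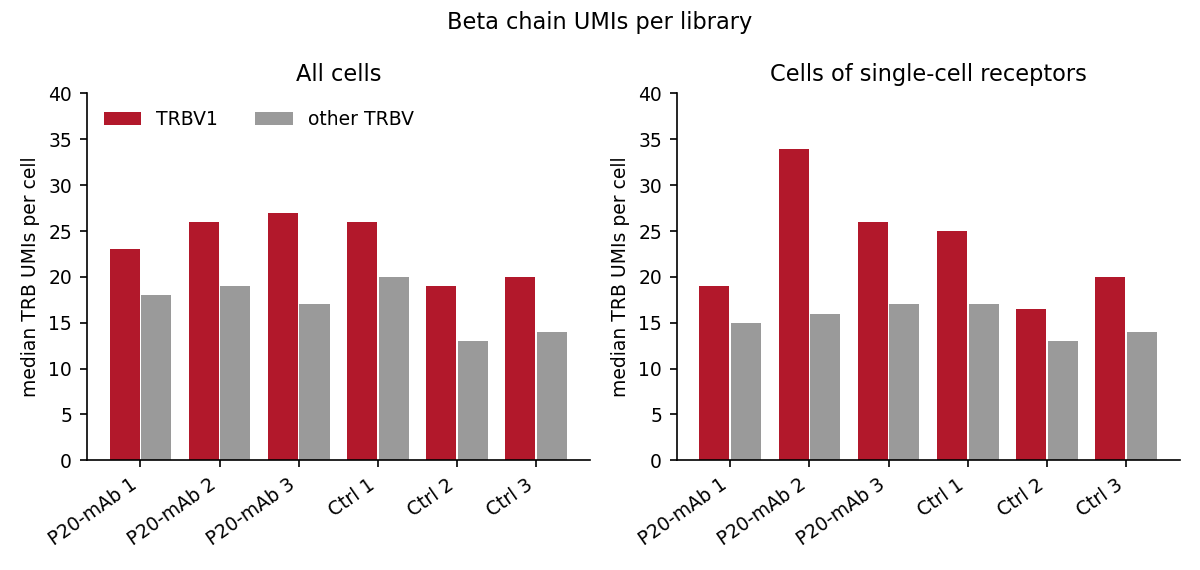
Paired bars give the median UMIs of the TRB chain per cell, from 0, for TRBV1 (red, left of each pair) and other V segments (grey) in each library, over all kept cells in the left panel and over cells whose receptor is on 1 cell in the right panel. The TRBV1 bar is the higher in all 6 libraries of both panels. In the right panel the TRBV1 bars of LNP-P20-mAb 1 and 2 rest on 7 and 14 cells.

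The CDR3 of TRBV1 receptors averaged longer than that of other beta receptors in each library. The mean over distinct receptors was 14.57, 14.16 and 14.34 residues for TRBV1 against 14.01, 13.99 and 14.05 for others in LNP-P20-mAb 1, 2 and 3. It was 14.34, 14.44 and 14.30 residues against 13.99, 13.97 and 13.90 in LNP-Ctrl 1, 2 and 3. TRBV1 was longer in 6 of 6 libraries, by 0.374 ± 0.141 residues (SD, n = 6), with a two-sided exact sign-flip permutation p of 0.031, the smallest possible, and 0.0625 after adjustment over the 4 within-library comparisons. Between treatments the TRBV1 means were 14.36 ± 0.207 residues after LNP-P20-mAb and 14.36 ± 0.0697 residues after LNP-Ctrl (SD, n = 3 each), with an exact permutation p of 0.9. With LNP-P20-mAb 1 and 2 counted as 1 sample the difference was -0.117 residues, with an exact permutation p of 0.4.

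The V end of TRBV1 receptors was longer and the middle shorter. The commonest start of TRBV1 receptors is 17 bases long.
TRBV1 start: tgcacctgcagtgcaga
Bases matching the commonest start of the V segment averaged 15.6, 15.5 and 15.1 for TRBV1 against 13.6, 13.6 and 13.6 for other V segments after LNP-P20-mAb, and 15.2, 15.5 and 14.8 against 13.6, 13.6 and 13.5 after LNP-Ctrl. The bases between the V and J ends were fewer, at 9.57, 9.16 and 9.23 for TRBV1 against 10.2, 10.1 and 10.4 for others after LNP-P20-mAb, and 9.45, 9.68 and 9.54 against 10.1, 10.1 and 9.91 after LNP-Ctrl. So in 6 of 6 libraries the V end was longer and the middle shorter. A base added at random can match the commonest start, so these are counts of matching bases.

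**Figure D5:**
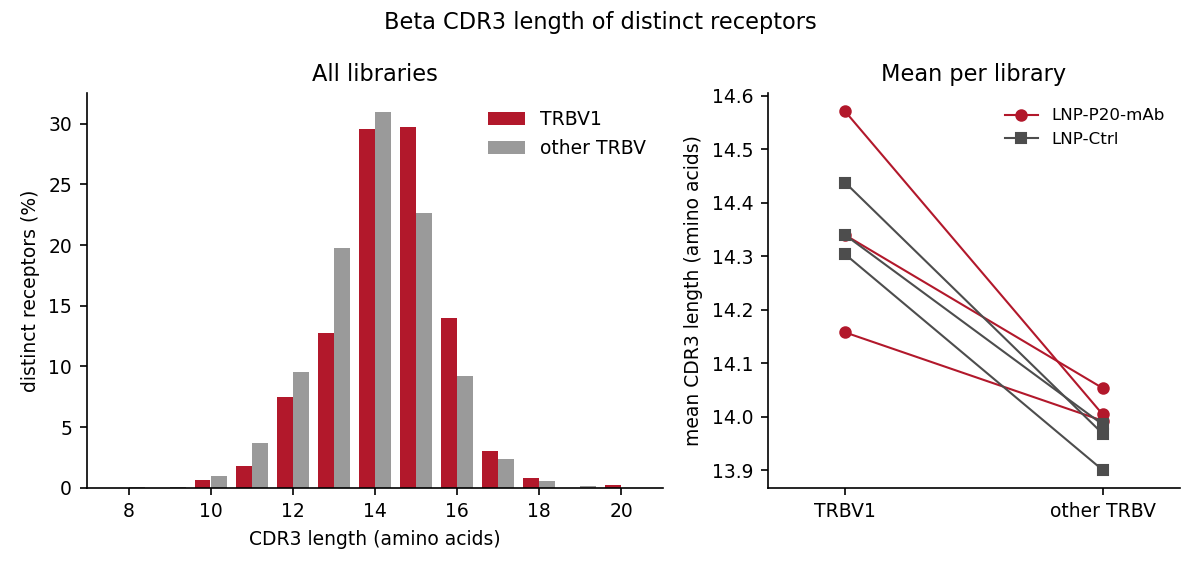
The left panel gives the percentage of distinct receptors at each CDR3 length in amino acids, over all libraries, for TRBV1 (red) and other V segments (grey). The right panel joins the mean length of TRBV1 to that of other V segments in each library, on an axis that does not start at 0, with LNP-P20-mAb as red circles and LNP-Ctrl as grey squares, and all 6 lines run downward.

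Within the loop, aspartate was the commonest residue at place 6, in 32.4% of TRBV1 receptors, followed by glycine in 22.3% and glutamate in 9.72%. These shares count place 6 whatever residues came before it, and 28.9% of TRBV1 receptors opened with CTCSAD. The commonest TRBV1 start, printed above, ends within place 6, with the bases ga that open the codons of both aspartate and glutamate. Place 6 was not computed for other V segments. Glycine led at place 7 in 26.1% and at place 8 in 42.3%. Of the D segment motifs searched after the V start, GG was in 27.1% of TRBV1 receptors and 28.0% of others, DWG in 6.28% and 6.71%, GTG in 5.67% and 6.12%, DRG in 4.05% and 3.00%, GQG in 3.64% and 3.41%, and GLG in 3.24% and 3.12%. Averaged over the 6 libraries, DRG was in 4.23 ± 2.86% of TRBV1 receptors and 2.56 ± 0.754% of others (SD, n = 6), so the difference was within the spread of the TRBV1 values. Motif matches include those of other motifs, such as GG within longer runs.

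No partner segment of TRBV1 passed the test against other receptors. In the edgeR quasi-likelihood fit with a library block, 0 of 129 TRBJ, TRAV and TRAJ segments passed an adjusted p of 0.05, which is 0%, while 6 had an unadjusted p under 0.05. DESeq2 also called 0, with 4 under an unadjusted p of 0.05. On simulated counts the edgeR partner fit recovered 70.3% of segments changed 4-fold, so a segment that was not called can still differ. The test of a different TRBV1 pairing between treatments called 0 of 129, or 0%, with 6 under an unadjusted p of 0.05.

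The beta J segments with most TRBV1 receptors were TRBJ2-7 with 90 of 494, TRBJ2-1 with 70 and TRBJ2-5 with 53. These are 18.2%, 14.2% and 10.7% of TRBV1 receptors, against 19.8%, 12.3% and 12.5% of others. Among alpha J segments TRAJ26 led, followed by TRAJ22 with 22 of 451 and by TRAJ23 and TRAJ31 with 19 each. TRAJ22 made up 4.88% of TRBV1 receptors and 6.66% of others, TRAJ23 4.21% and 4.84%, and TRAJ31 4.21% and 4.36%. Among alpha V segments TRAV13-1 led with 16 of 451, or 3.55% against 3.46% of others. TRAV12-2, TRAV16N and TRAV6D-6 followed with 15 each, or 3.33% of TRBV1 receptors, against 3.82%, 3.11% and 3.48% of others.

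The partner segments with the smallest p were TRAV6-5 and TRAV14-1, chosen here after their values were seen. TRAV6-5 was in 13 TRBV1 receptors, or 2.88%, against 0.947% of others, and its share was higher with TRBV1 in 6 of 6 libraries. In LNP-P20-mAb 1 and 2 it was in 1 of 14 and 2 of 19 TRBV1 receptors. The similarly named TRAV6N-5 and TRAV6D-5 were each in 0.222% of TRBV1 receptors, against 0.326% and 0.217% of others. For TRAV6-5 the edgeR values follow. The TRAV6-5 log2 fold change, TRBV1 over other receptors, was 1.69 ± 0.53 (SE), with an edgeR adjusted p of 0.165. With LNP-P20-mAb 1 and 2 counted as 1 sample, the TRAV6-5 value was 1.56, with an edgeR adjusted p of 0.871. TRAV14-1 was in 12 TRBV1 receptors, or 2.66%, against 0.858% of others. Of the 12, 3 carried the shared TRAJ26 loop for which TRBV1 was chosen, so that difference is a description. With other loops TRAV14-1 was in 9 TRBV1 receptors, or 2.00%, found in 4 of 6 libraries. Without receptors with the TRAJ26 loop its log2 fold change, TRBV1 over other receptors, was 1.20, with an edgeR adjusted p of 0.848.

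A second recurring pair stood within TRAV6-5. TRAV6-5 joined to TRAJ42 was the leading alpha chain of 8 receptors in all libraries, of which 6 carried TRBV1, on 11 cells, and 2 carried another V segment, on 2 cells. The 6 TRBV1 receptors were in LNP-P20-mAb 1, 2 and 3 and in LNP-Ctrl 1, and all 6 used TRBJ2-1. The other 2 used TRBJ1-6 with TRBV5 and TRBJ2-7 with TRBV19. This pair was noticed in these libraries and is described with no test. The alpha loops of the 6 read CAL, 2 residues and GGSNAKLTF, where the 2 residues were RV, SP, RA or RP, and capitals mark the 4 of 42 bases at which they differ.
RV, LNP-P20-mAb 1 and 2: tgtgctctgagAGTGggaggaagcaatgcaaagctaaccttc
SP, LNP-P20-mAb 2: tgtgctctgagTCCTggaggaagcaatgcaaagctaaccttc
RA, LNP-P20-mAb 3: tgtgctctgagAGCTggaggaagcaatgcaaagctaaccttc
RP, LNP-P20-mAb 3 and LNP-Ctrl 1: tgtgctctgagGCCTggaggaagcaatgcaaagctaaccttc
The beta loops of 5 of the 6 were 15 residues long and opened with CTCSAD, and the remaining 1 was 14 residues long. The RV receptors of LNP-P20-mAb 1 and 2 were identical in beta and alpha bases, so the same receptor is counted in both libraries.

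Invariant alpha chains were on few TRBV1 cells. TRAV11 or TRAV11D joined to TRAJ18, the iNKT alpha chain, was on 4 of 1217 TRBV1 cells with an alpha chain, or 0.329%, against 52 of 17898 other cells, or 0.291%. The 4 cells were 1 of LNP-P20-mAb 3, 2 of LNP-Ctrl 2 and 1 of LNP-Ctrl 3. TRAV1 joined to TRAJ33, the alpha chain of mucosal-associated invariant T (MAIT) cells, was on 1 TRBV1 cell, in LNP-Ctrl 3, and on 16 others. TRAJ18 with any TRAV was in 1.11% of TRBV1 receptors and 2.26% of others, with an edgeR adjusted p of 0.820, and TRAJ33 in 2.88% and 3.01%, with an edgeR adjusted p of 0.989.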

How the data were processed

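The labels' protocols describe about 10000 sorted CD45+ cells per sample, 10x Genomics 5′ chemistry and enrichment of T cell receptor transcripts. Cell Ranger 8.0.1 is named by the submitters' processing notes. Each line of the deposited files is an assembled chain with its read and UMI counts, which are raw counts. The authors called cells and chains, so a chain dropped before deposit leaves no trace. Builds are named with no role, so no coordinates are given. Gene expression data of the 6 companion samples were not used.

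Repeated listings of a chain on a barcode were merged. Barcodes with over 1 TRB or over 2 TRA chains were left out. Segments with 30 or more receptors were tested with edgeR 4.0.16 quasi-likelihood fits on receptor counts, with the number of receptors as library size. Single values per library were compared with exact permutation tests. Named partner segments are those past an adjusted p of 0.05 (0 were) and the 3 commonest of each kind, and named receptors are the 3 largest of each library, loops in 3 or more libraries and the main TRAJ26 pairings. Members and lists were chosen with earlier results of these data known. The edgeR scripts were tested on simulated data. The closing section gives the alternatives tried, DESeq2 1.42.0 among them. Replicate numbers were not found to pair the samples.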

Additional observations from a re-analysis of the deposited data

How the results depend on the processing

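The comparisons rest on 3 libraries per treatment, of which LNP-P20-mAb 1 and 2 carry the same clones and have 14 and 19 TRBV1 receptors. The share of TRBV1 among receptors, a log2 fold change of -0.40, lay between -0.52 and -0.23 without each library in turn, was -0.41 with a replicate block, and turned to 0.98 when cells were counted in place of receptors, none with an edgeR adjusted p under 0.05. Under the replicate block, in which the replicate numbers paired the libraries, the edgeR adjusted p of that share was 0.279. The exact permutation tests by treatment cannot go below 0.25 with the block or below 0.1 without it. They therefore cannot show whether a call depends on the block. The numbers do not pair them by the data, since deviations of same-numbered libraries correlated at -0.03, -0.15 and -0.07. The difference of TRBV1 CDR3 length by treatment, -0.0045 residues, turned to 0.00021 residues with TRB chains of 3 or more UMIs and to 0.0314 residues without receptors with the TRAJ26 loop, and ranged from -0.112 to 0.0947 residues without each library, with the sign turned without LNP-P20-mAb 2 (0.0947), without LNP-P20-mAb 3 (0.0039) and without LNP-Ctrl 2 (0.0343). The length difference of TRBV1 from other V segments was 0.330 residues with LNP-P20-mAb 1 and 2 pooled and 0.335 to 0.416 residues without each library. The UMI difference was 6.80 UMIs pooled and 6.00 to 7.00 UMIs without each library. With 5 samples the exact sign-flip p cannot go below 0.0625, which it was in each of these. With cells in place of receptors the length difference was 0.974 residues, over 6 libraries. Recovery of an alpha chain, lower with TRBV1 by cells, was 2.27 percentage points higher when receptors were counted in place of cells, an alternative chosen after seeing the data. It was -1.08 points in the comparison reported, -0.319 points with barcodes of several TRB chains kept, -0.663 points without LNP-Ctrl 1 and -2.69 points without receptors with the TRAJ26 loop. Leaving out those receptors, also chosen after seeing the data, turned the expanded share of TRBV1 minus other V segments to -2.68 points. The UMI difference by treatment, 3.67 UMIs, was 0.833 UMIs with barcodes of several TRB chains kept, 1.37 UMIs with means in place of medians, 2.33 UMIs without receptors with the TRAJ26 loop and 2.33 to 5.83 UMIs without each library. The number of partner segments past an adjusted p of 0.05 was 1 without LNP-Ctrl 2 and 0 in the other 13 alternatives. The 1 was TRAV6-5, with a log2 fold change of 2.17 and an edgeR adjusted p of 0.0466. In those 13, the smallest adjusted p of TRAV6-5 and TRAV14-1 was 0.0777, with DESeq2. The largest was 0.871, with edgeR and LNP-P20-mAb 1 and 2 pooled. The TRBV1 share of T cells by treatment, 4.48 percentage points, was 2.66 to 7.27 points over 12 alternatives, and without LNP-P20-mAb 3 it was 6.57 points. The expanded share by treatment was 48.7 to 62.6 points over 12 alternatives.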
